A study of Mus musculus with 16 samples.

Results

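Aldo-keto reductases were measured in the livers of Gadd45β wild-type (WT) and Gadd45β null (KO) mice that had received a liver carcinogen with or without phenobarbital (PB). The 10 genes are Akr1a1, Akr1b3, Akr1b7, Akr1b8, Akr1c6, Akr1c14, Akr1c19, Akr1c20, Akr1d1 and Akr7a5. They were found on the array by matching the RefSeq accession of each probe to a gene symbol, which gave 11 probes for 9 of the 10 genes, out of 41174 probes and 19096 named genes. Akr1c20 had no matched probe and is named here without a value. The remaining 9 genes all passed the filter on dim probes, and each of their probes was well above background on all 16 arrays. Akr1b3 and Akr1c19 had 2 probes each, and the values of a gene are those of its brightest probe unless the second probe is named.

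The mice were males in 4 groups of 4, with 1 array of liver RNA per mouse, and the pieces of liver were taken outside tumours. All 16 mice, controls included, had been given diethylnitrosamine (DEN, 90 mg/kg) when they were 5 weeks of age. The WT DEN and KO DEN groups then drank plain water, and the WT DEN + PB and KO DEN + PB groups drank water with PB (0.5 g/l) from 7 weeks of age until the livers were taken at 57 weeks. WT mice were C57BL/6J, and the KO mice carried the null allele in the whole body. The authors describe the mice as having a C57BL/6J background, while the stock name of the KO line includes a second strain beside C57BL/6. Genotype and strain background therefore cannot be told apart here. Each mouse was a separate animal, so the spread within a group is a spread between mice.

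Aldo-keto reductases are enzymes that use NADPH or NADH to reduce aldehydes and ketones to alcohols, and some of them run the reaction backwards on hydroxysteroids. In the liver they clear reactive aldehydes from lipid peroxidation and from food, interconvert steroid hormones, and take part in making bile acids. PB activates the nuclear receptor CAR in hepatocytes, which switches on drug-metabolising genes such as Cyp2b10, and Gadd45β is a stress-induced protein that is itself induced through CAR.

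The 75th percentile of the processed signal lay between 137 and 294 intensity units, and 58.3% to 67.7% of the spots of an array were well above background. Gadd45b was well above background on 4 of 4 arrays in each WT group and on 0 of 4 in each KO group. The 7 matched hepatocyte markers, among them Alb, Apob and Hnf4a, were well above background on every array. With PB in WT all 7 had negative log2 changes, with a median of -0.32. With PB in KO 3 of the 7 were positive, with a median of -0.01. The summed signal of the leukocyte markers was lower in KO. It was 22.1 to 40.7 times the 75th percentile in the WT DEN mice and 25.2 to 29.3 in WT mice on PB. In the KO DEN mice it was 14.1 to 17.6, and in KO mice on PB 9.65 to 14.7. In tissue pieces of this kind, fewer cells of a type and less RNA per cell cannot be told apart.

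A row of the family's genes lies side by side on chromosome 6, and the results turn on how differently they behaved. In gene order these are Akr1b3, Akr1b8, Akr1b10 and Akr1b7, with 0 protein-coding genes between neighbours, and Akr1d1 follows after a further 18 protein-coding genes. The promoters of Akr1b8, Akr1b10 and Akr1b7 are shown so that the 3 neighbouring genes can be compared. Each runs 5′ to 3′ along the plus strand, which is the strand of these genes, from 250 bases before the start of the gene to 50 bases after it, in assembly GRCm38.p6 as given by RefSeq. They are chr6:34353896-34354195 for Akr1b8, chr6:34383997-34384296 for Akr1b10 and chr6:34412112-34412411 for Akr1b7. Capitals mark a match, on either strand, to a nuclear receptor half-site (AGGTCA or AGTTCA), the core of the antioxidant response element (TGACNNNGC) or the AP-1 motif (TGAGTCA).
Akr1b8: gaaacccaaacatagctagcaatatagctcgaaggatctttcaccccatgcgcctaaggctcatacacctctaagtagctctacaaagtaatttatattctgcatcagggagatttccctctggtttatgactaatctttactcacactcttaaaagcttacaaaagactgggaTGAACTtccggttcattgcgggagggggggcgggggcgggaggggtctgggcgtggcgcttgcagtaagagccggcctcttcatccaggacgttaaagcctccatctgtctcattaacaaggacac
Akr1b10: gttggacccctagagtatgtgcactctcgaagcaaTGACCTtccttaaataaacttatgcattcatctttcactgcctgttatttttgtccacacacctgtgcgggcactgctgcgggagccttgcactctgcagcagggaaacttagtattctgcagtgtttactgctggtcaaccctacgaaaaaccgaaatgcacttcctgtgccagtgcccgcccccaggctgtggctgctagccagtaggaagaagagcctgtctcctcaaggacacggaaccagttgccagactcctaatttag
Akr1b7: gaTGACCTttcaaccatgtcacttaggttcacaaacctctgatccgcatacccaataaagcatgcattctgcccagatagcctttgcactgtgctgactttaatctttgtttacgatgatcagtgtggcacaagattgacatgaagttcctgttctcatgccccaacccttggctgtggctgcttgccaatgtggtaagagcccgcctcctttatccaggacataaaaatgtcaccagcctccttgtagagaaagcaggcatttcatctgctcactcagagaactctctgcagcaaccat
In each of the 3 promoters the search found 1 match, a half-site read from the opposite strand. AGGTCA lay 248 bases before the start of Akr1b7 and 215 bases before that of Akr1b10, and AGTTCA lay 76 bases before that of Akr1b8. Of 32851 promoters of the same 300-base length, 16.3% held AGGTCA, 14% held AGTTCA, 12.4% held TGACNNNGC and 5.2% held TGAGTCA. A direct repeat of 2 half-sites with 4 bases between them was in 0.0274% of promoters and in none of these 3. A match describes the letters of the window and shows no binding.

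Akr1b7 was the aldo-keto reductase that PB raised most. It encodes a reductase first known from the vas deferens and the adrenal cortex, where it handles aldehydes left by steroid synthesis. Its log2 signals, relative to the 75th percentile of the array, were -3.48, -4.31, -3.51 and -4.29 in WT mice under DEN. They were -1.26, -0.98, -0.97 and -0.95 in WT mice under DEN + PB. All 4 PB arrays lay above all 4 DEN arrays. PB thus raised Akr1b7 in WT by a log2 change of 2.86 ± 0.22 (SE), 7.24-fold, with a 95% confidence interval of 2.38 to 3.33 (limma, adjusted p = 2.38e-06; alternatives gave 3.61e-07 to 1). The exact permutation test of 4 against 4 arrays gave p = 0.0286, the smallest it can give.

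In KO the log2 signals of Akr1b7 were -3.59, -3.08, -2.95 and -3.06 under DEN. They were 1.06, 0.46, 0.40 and 0.86 under DEN + PB. The KO DEN + PB arrays were the highest of all 16, and every one of them lay above every WT DEN + PB array, a separation that 7.52% of all genes had. The log2 change with PB in KO was 3.86 ± 0.22 (SE), 14.6-fold, with a 95% confidence interval of 3.39 to 4.34 (limma, adjusted p = 1.21e-07; alternatives gave 7.18e-09 to 0.000547). Its exact permutation p was again 0.0286.

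The genotypes were then compared at each treatment. Under DEN + PB, Akr1b7 was higher in KO than in WT by 1.74 ± 0.22 (SE) on the log2 scale, 3.33-fold (limma, adjusted p = 0.000304, exact permutation p = 0.0286). Under DEN alone the difference was 0.73 ± 0.22, the arrays of the genotypes overlapped, and the test across all probes was not passed (limma, adjusted p = 0.083). The direction of that value was not the same in every setting. It was 0.40 on slide 1 and -0.08 on slide 3, each from 1 array against 1, and -0.27 over all arrays after the normexp background correction. The sign turned in 1 of 12 alternatives that kept all arrays and in 0 of 16 fits that left out a single array. The PB effect in WT minus that in KO was -1.01 ± 0.32, with a 95% confidence interval of -1.68 to -0.34, and this difference of the effects did not pass the threshold either (limma, unadjusted p = 0.00567, adjusted p = 0.493). A larger response of Akr1b7 to PB in KO is therefore not shown by the test, although the level after PB was higher there.

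Within slides, the log2 difference of Akr1b7 between DEN + PB and DEN in WT was 2.50 on slide 1, 3.35 on slide 2 and 2.25 on slide 3, and slide 4 held no WT DEN array. In KO it was 3.94 on slide 1, 4.06 on slide 3 and 3.40 on slide 4, and slide 2 held no KO DEN array. The KO minus WT difference under DEN + PB was 1.84, 2.02, 1.72 and 1.36 on slides 1 to 4. Most of these values compare 1 array with 1 array. The exceptions are the PB effects on slide 2 in WT and on slide 4 in KO, where 2 DEN arrays were averaged. Each within-slide value of these 3 comparisons had the direction of the value over all arrays, unlike KO against WT under DEN, which turned on slide 3. Akr1b7 is a dim probe in the DEN groups. The normexp background correction, which adds an offset of 50 units, lowered the PB effect in WT to 0.79. It ended that call as well as that of KO against WT under DEN + PB. Normexp without spots of outlying background, with the same offset, kept both calls. For KO against WT under DEN + PB it gave a limma adjusted p of 7.08e-05. Why the 2 forms of normexp differed was not tested.

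Because Akr1b7 is also made outside the liver, markers of those tissues were examined. Of the adrenal cortex markers, Cyp11a1, which starts steroid synthesis, was well above background on no array and Star, which carries cholesterol into mitochondria, on every array, and the summed signal of the 5 matched markers was 0.12 to 0.27 times the 75th percentile over all arrays. Of the 3 male tract markers, Crisp1 and Spink8 were well above background on no array and Defb1, a defensin, on every array. The part of such tissue in the Akr1b7 signal was not tested.

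**Figure D1:**
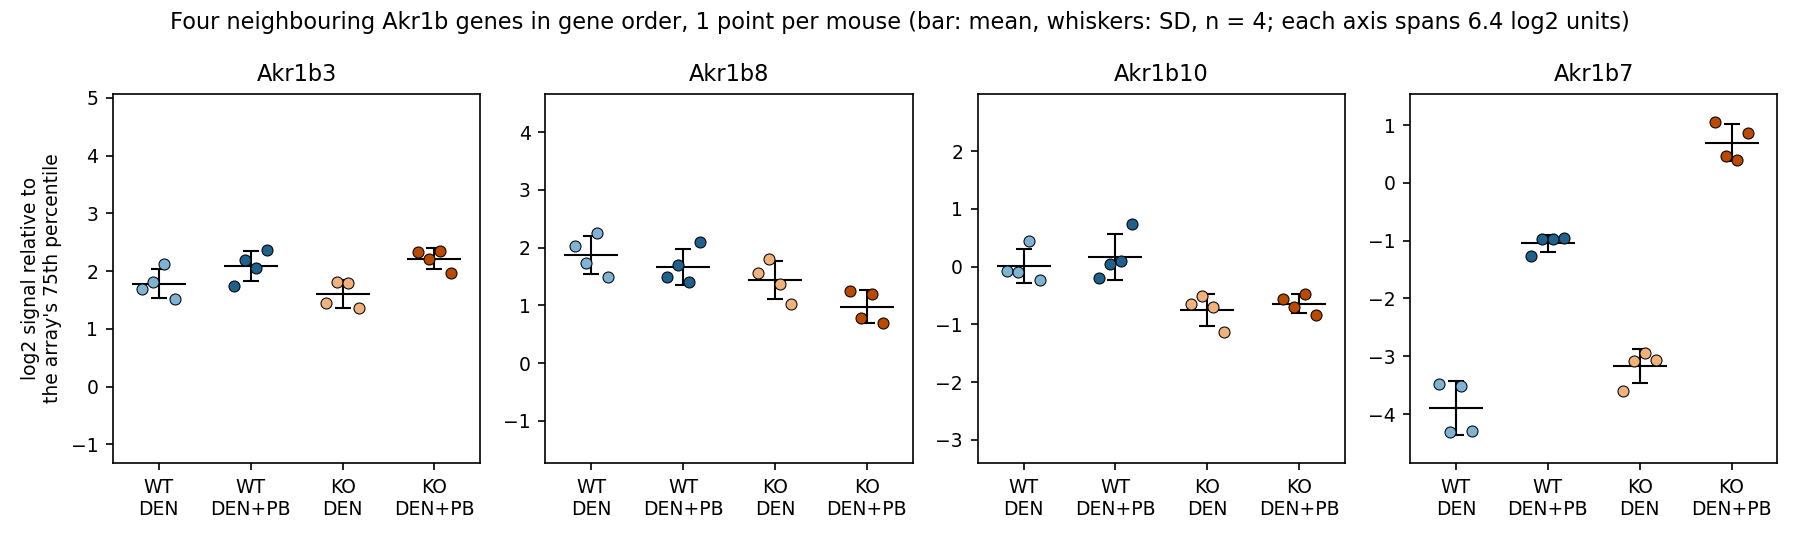
Log2 signal relative to the 75th percentile of the array for Akr1b3, Akr1b8, Akr1b10 and Akr1b7, in the order in which the genes lie, with 1 point per mouse, the mean as a bar and the SD as whiskers (n = 4), and axes of equal span. Akr1b7 rises from -3.90 to -1.04 in WT and from -3.17 to 0.69 in KO, while the group means of Akr1b8 lie between 0.98 and 1.87 and those of Akr1b10 between -0.74 and 0.17.

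Of the 9 genes, 1 was called for the PB effect in WT, where 0.737% of all 13302 genes tested were called, and 1 in KO, where 2.12% were. The called gene was Akr1b7 in both. The other 8 genes had log2 changes with PB from -0.20 to 0.30 in WT, 5 of them above 0, and from -0.46 to 0.62 in KO, 7 of them above 0. Their median log2 change was 0.08 in WT and 0.37 in KO, against -0.02 and 0.01 over all genes tested. The median PB effect in WT minus that in KO was -0.33 for these 8 genes and -0.04 over all genes. This was not particular to the family. Of the lists given below, it was -0.26 for hepatocyte markers, -0.29 for bile acid synthesis and -0.30 for steroid hormone genes. It was 0.20 for NRF2 targets and 1.1 for cholangiocyte markers. The arrays of the DEN and DEN + PB groups did not overlap for 1 of the 9 genes in WT, Akr1b7, where 3.22% of all genes were higher without overlap. In KO they did not overlap for 4 of the 9, Akr1a1, Akr1b3, Akr1b7 and Akr1c14, where 4.57% of all genes were higher without overlap. For the difference of the PB effects 0 of the 9 were called by limma, as were 0% of all genes. An unadjusted p under 0.05 was found for 1 of the 9, Akr1b7, and for 1470 of the 24456 probes tested.

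**Figure D2:**
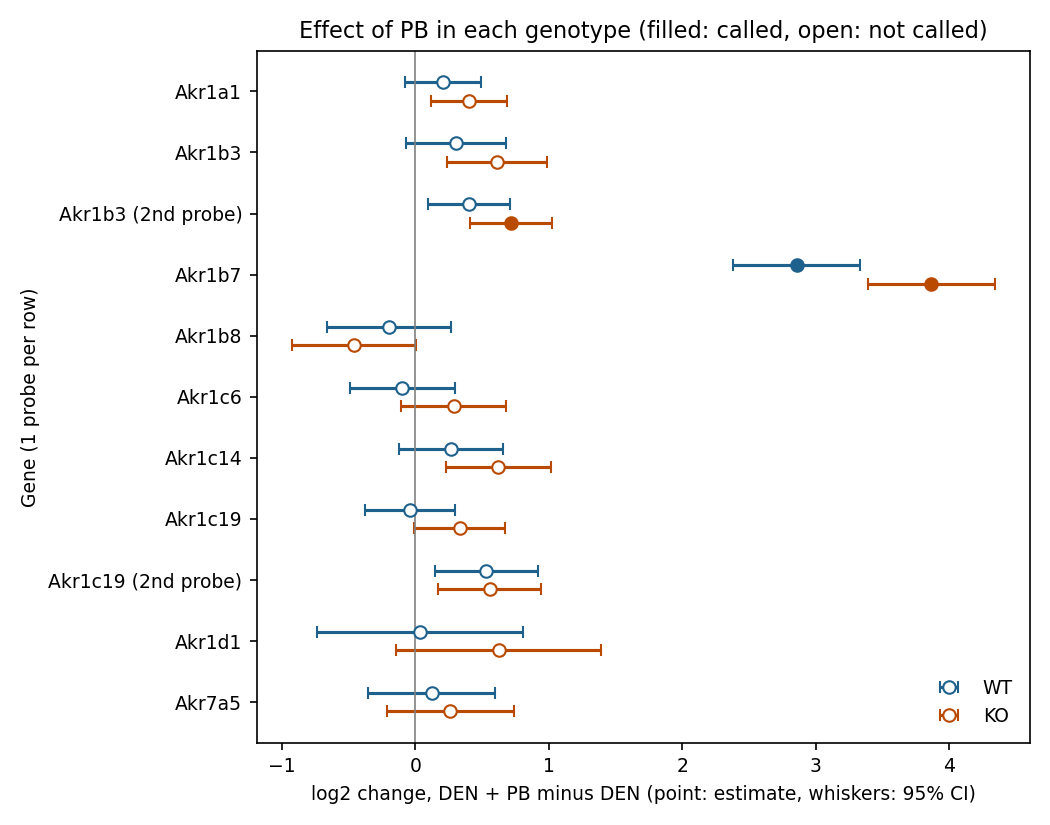
Log2 change with PB (DEN + PB minus DEN) for each probe of the 9 genes in WT and in KO, with 95% confidence intervals from the fit and filled points where the change was called. Akr1b7 stands apart at 2.86 in WT and 3.86 in KO, and the one other filled point is the second probe of Akr1b3 in KO at 0.72.

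Akr1b3 is aldose reductase, which turns glucose into sorbitol. Its log2 signals were 1.45, 1.82, 1.79 and 1.36 in KO mice on plain water and 2.34, 2.21, 2.35 and 1.97 in those on PB. The KO groups did not overlap, and the log2 change with PB was 0.61 ± 0.18 (SE, exact permutation p = 0.0286, limma adjusted p = 0.101). Measured by its second probe, the gene changed by 0.72 ± 0.14 in KO and was called (limma adjusted p = 0.0157), so the call depends on the probe. In WT the signals were 1.70, 1.81, 2.12 and 1.51 under DEN and 1.74, 2.19, 2.06 and 2.36 under DEN + PB. The WT groups overlapped, and the changes of 0.30 ± 0.18 and, on the second probe, 0.40 ± 0.14 were not called (limma adjusted p = 0.817 and 0.41). The difference of the PB effects of Akr1b3 was -0.31, with a 95% confidence interval of -0.84 to 0.22.

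Akr1b8, a reductase of lipid aldehydes that lies between Akr1b3 and Akr1b10, had negative values with PB in both genotypes. Its log2 signals in WT were 2.03, 1.73, 2.25 and 1.48 under DEN, and 1.49, 1.70, 1.40 and 2.10 under DEN + PB. In KO they were 1.57, 1.80, 1.37 and 1.02 under DEN and 1.25, 0.77, 1.20 and 0.69 under DEN + PB. The DEN and DEN + PB arrays overlapped in each genotype, and the log2 changes were -0.20 ± 0.22 in WT and -0.46 ± 0.22 in KO (SE, limma adjusted p = 0.951 and 0.42).

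Between the genotypes under DEN + PB the Akr1b8 arrays did not overlap, with the 4 KO arrays below the 4 WT arrays, as held for 9.87% of all genes, and the KO minus WT difference was -0.69 ± 0.22 (SE, limma adjusted p = 0.068, 0.00986 to 0.752 among alternatives, exact permutation p = 0.0286). It missed the threshold here and passed it under 4 of 12 alternatives that kept all arrays. Akr1b10, which was not among the 10 genes, was called lower in KO under DEN + PB, with a difference of -0.81 ± 0.21 (limma adjusted p = 0.0256). The log2 signals of Akr1b10 on PB were -0.19, 0.04, 0.10 and 0.74 in WT and -0.56, -0.70, -0.47 and -0.84 in KO. Under DEN the Akr1b10 difference was -0.76 ± 0.21, and that of Akr1b8 was -0.43 ± 0.22 (limma adjusted p = 0.0574 and 0.281). Signals of other cell types also differed between the genotypes. Under DEN + PB, 7 of 9 tested leukocyte markers, 4 of 6 cholangiocyte markers, 2 of 6 endothelial markers and 2 of 7 stellate and fibroblast markers were called lower in KO. There 7.56% of all genes were called in either direction. Positive KO minus WT values were held by 1 of the 9 leukocyte markers (0.37) and 1 of the 7 stellate and fibroblast markers (0.06). Of the 7 hepatocyte markers, 6 had positive values under DEN + PB, with a median of 0.30, and Tat was called higher at 0.67. Under DEN 3 of the 7 were positive, with a median of -0.03. Under DEN the markers called lower were 3 of 9 leukocyte, 2 of 6 endothelial, 0 of 6 cholangiocyte and 0 of 7 stellate and fibroblast. In the last 2 lists 1 marker each had an unadjusted limma p under 0.05. These were Krt19, which was higher in KO, and Reln, which was lower. Under DEN 2.73% of all genes were called in either direction. Positive values under DEN were held by 2 of 9 leukocyte, 1 of 6 endothelial, 4 of 6 cholangiocyte and 3 of 7 stellate and fibroblast markers. The median log2 difference of the cholangiocyte markers under DEN was 0.17. Under DEN + PB the summed signal of the cholangiocyte markers was 18.0 to 35.9 in WT and 12.1 to 15.6 in KO. Their part in the differences of Akr1b8 and Akr1b10 was not tested.

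The Akr1c genes of the list lie in a cluster on chromosome 13. Akr1c14, a 3-alpha-hydroxysteroid dehydrogenase, had log2 signals under DEN of 5.00, 5.19, 5.34 and 4.95 in WT, and 4.70, 4.10, 4.71 and 4.24 in KO. All 4 KO DEN arrays lay below the 4 WT DEN arrays, as they did for 6.35% of all genes, and the difference of -0.68 ± 0.18 (SE) was just short of the threshold (limma adjusted p = 0.0561, 0.0357 to 0.67 among alternatives, exact permutation p = 0.0286). In the DEN + PB groups the signals were 5.05, 5.47, 5.61 and 5.40 in WT and 5.37, 4.74, 5.07 and 5.07 in KO. These groups overlapped, with a difference of -0.32 ± 0.18 (limma adjusted p = 0.312). The log2 change of Akr1c14 with PB in KO was 0.62 ± 0.18, without overlap between the arrays but not called (limma adjusted p = 0.115, exact permutation p = 0.0286), and in WT it was 0.27 ± 0.18 (limma adjusted p = 0.872).

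Akr1c6, which acts on the 17-beta position of steroids, stayed within a range of 0.83 log2 units over the 16 arrays. Its log2 change with PB was -0.10 in WT and 0.29 in KO, each with an SE of 0.19, and neither was called. For Akr1c19, the probes disagreed on the effect of PB in WT. The brighter probe gave -0.04 ± 0.16 and the second probe 0.53 ± 0.18 (SE, limma adjusted p = 0.994 and 0.372). In KO they gave 0.33 ± 0.16 and 0.56 ± 0.18, neither called (limma adjusted p = 0.428 and 0.165). The KO arrays overlapped on the brighter probe but not on the second, so that separation depends on the probe. No direction is given for Akr1c19 in WT.

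Akr1a1 is the aldehyde reductase that makes gulonate from glucuronate on the way to ascorbate. It varied by 0.77 log2 units over the 16 arrays, the narrowest range of the 9 genes. In KO its log2 signals were 6.07, 5.70, 6.02 and 5.81 under DEN and 6.40, 6.29, 6.17 and 6.33 under DEN + PB. The KO groups did not overlap, and the log2 change of 0.40 ± 0.13 (SE), 1.32-fold, lay under the 1.5-fold limit and was not called (limma adjusted p = 0.177, exact permutation p = 0.0286). In WT the change was 0.21 ± 0.13 and the groups overlapped.

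Akr1d1 is the 5-beta-reductase of bile acid and steroid synthesis. It was the most variable of the genes other than Akr1b7, with a range of 2.23 log2 units, and KO DEN replicate 2 was the lowest of the 16 arrays at -0.96 while the other KO DEN arrays lay between 0.21 and 0.77. The log2 change with PB was 0.03 ± 0.36 in WT and 0.62 ± 0.36 in KO (SE, limma adjusted p = 0.999 and 0.556). The 95% confidence interval in KO, -0.15 to 1.39, leaves room for a change as large as 2.63-fold. Without KO DEN replicate 2 the KO value was 0.25. Akr7a5, a reductase of aflatoxin aldehyde and succinic semialdehyde, changed by 0.12 ± 0.22 in WT and 0.26 ± 0.22 in KO, neither of which was called.

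**Figure D3:**
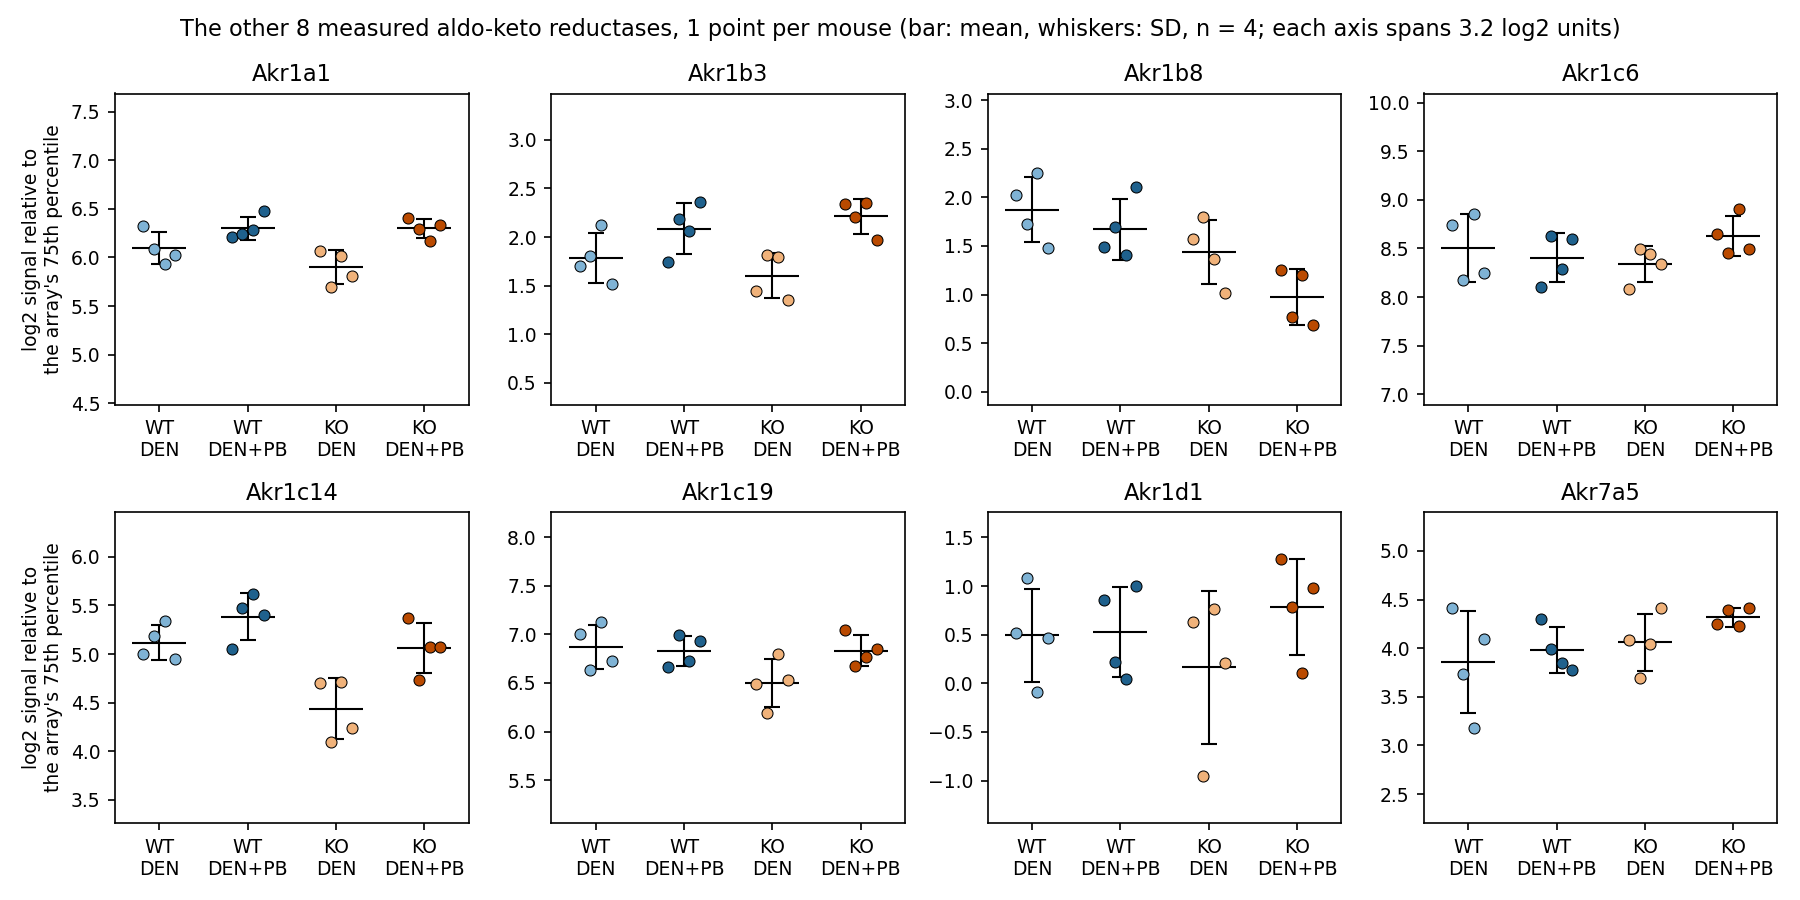
Log2 signal relative to the 75th percentile of the array for the 8 measured genes other than Akr1b7, with 1 point per mouse, the mean as a bar and the SD as whiskers (n = 4), and axes of equal span. The KO DEN and KO DEN + PB points are separate for Akr1a1, Akr1b3 and Akr1c14, and for the other 5 genes they overlap.

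Between the genotypes, 0 of the 9 genes were called under DEN by limma, where 2.73% of all genes were called. An unadjusted p under 0.05 was found for 3 of the 9 (Akr1b7, Akr1c14 and Akr1c19), and for 4968 of the 24456 probes tested. Under DEN + PB 1 of the 9, Akr1b7, was called, where 7.56% of all genes were. Of the genes other than Akr1b7, 7 of 8 had a negative KO minus WT value under DEN, with a median of -0.26 against -0.04 over all genes. Under DEN + PB 3 of 8 were negative, with a median of 0.07 against 0.03. The comparisons share arrays, so these counts are not independent of the PB effects above.

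**Figure D4:**
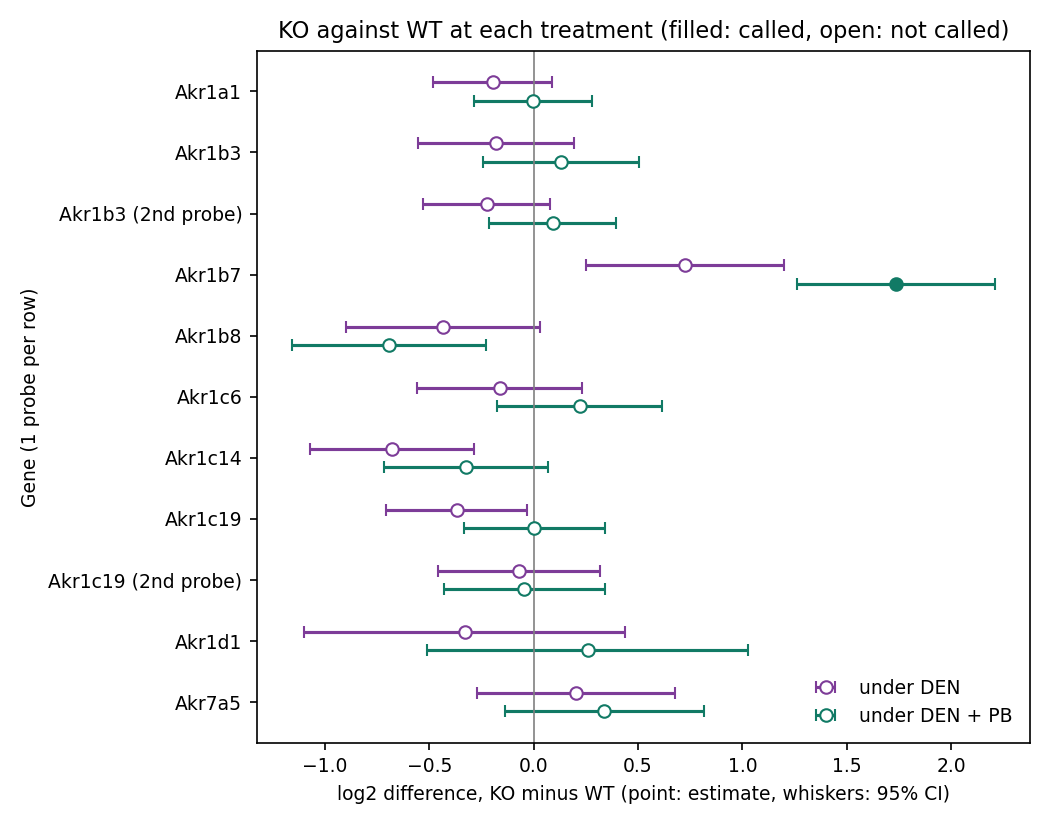
Log2 difference between KO and WT (KO minus WT) for each probe of the 9 genes under DEN and under DEN + PB, with 95% confidence intervals from the fit and filled points where the difference was called. The filled point is Akr1b7 under DEN + PB at 1.74, and Akr1b8 at -0.69 and Akr1c14 under DEN at -0.68 lie on the other side of 0 without being called.

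The array-to-array spread within groups was also compared between genes. After subtraction of the group means, the signals of Akr1b3 and Akr1b8, which are neighbours, correlated over the 16 arrays with Pearson's r of 0.77, the highest of the 36 pairs of genes. The lowest was -0.79, between Akr1b3 and Akr7a5. The arrays share their scaling, and these correlations are given as a description.

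The genes outside the family that followed Akr1b7 most closely over the 16 arrays, by Pearson's r of the log2 signals, were Pnliprp1, a relative of pancreatic lipase (r = 0.97), Sult1e1, the estrogen sulfotransferase (r = 0.96), and Robo1, a receptor of Slit guidance proteins (r = 0.95). Most of the spread that these correlations describe lies between the 4 groups. For Sult1e1 the group means went from -3.79 to -1.34 with PB in WT and from -3.32 to 1.94 with PB in KO. Pnliprp1 was well above background on 0 of 4 arrays in each DEN group and on 4 of 4 in each DEN + PB group.

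Genes that work on the same substrates were then examined in lists. Of the other carbonyl reductases, 1 of 17 tested was called with PB in each genotype, and it was Cbr3, a carbonyl reductase of the short-chain dehydrogenase family. Among all genes tested, 0.737% were called with PB in WT and 2.12% in KO. The log2 change of Cbr3 was 4.01 ± 0.41 in WT and 2.94 ± 0.41 in KO (SE, limma adjusted p = 4.52e-05 and 0.000892). Under DEN + PB Cbr3 was lower in KO, with a KO minus WT difference of -1.63 ± 0.41 (limma adjusted p = 0.0243), where Akr1b7 was higher. Hsd11b1, which reactivates glucocorticoids, was called higher in KO under DEN + PB at 0.60 ± 0.16. The median log2 change of this list was -0.12 in WT and 0.16 in KO.

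Of 14 bile acid synthesis genes, the pathway of Akr1d1, 0 were called with PB in WT by limma (2 at an unadjusted p under 0.05), and in KO 1 was called. That gene was Cyp39a1, an oxysterol hydroxylase, which fell by 1.12 ± 0.26 (SE, limma adjusted p = 0.0358) and was also lower in KO than in WT under DEN + PB, with a difference of -1.53 ± 0.26. Of 14 genes that reduce or oxidise steroid hormones, 0 were called with PB in WT (3 at an unadjusted p under 0.05) and 0 in KO (0 at an unadjusted p under 0.05), and Hsd11b1 and Hsd17b11 were called higher in KO under DEN + PB. Of 9 tested genes of polyol, glucuronate and ascorbate metabolism, the pathways of Akr1b3 and Akr1a1, 0 were called with PB in WT (1 at an unadjusted p under 0.05) or in KO (3 at that limit). In KO 8 of the 9 had positive values. Over all 24456 probes tested, 1776 had an unadjusted limma p under 0.05 with PB in WT and 2954 in KO. Of all genes tested, 0.737% were called with PB in WT, 2.12% with PB in KO and 7.56% between the genotypes under DEN + PB. With PB in KO, 51.9% of all genes had positive values.

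Targets of CAR were examined for comparison. All 20 tested had positive values with PB in both genotypes, and 10 were called in WT and 15 in KO, with a median log2 change of 1.02 and 1.15. Of all genes tested, 45.9% were higher with PB in WT and 51.9% in KO, and 0.737% and 2.12% were called. Cyp2b10 rose by 6.69 ± 0.62 in WT and 6.80 ± 0.62 in KO. Of 14 tested targets of NRF2, a factor that answers oxidative and electrophilic stress, 6 were called in WT and 4 in KO, each of them higher. Nqo1, a quinone reductase of that list, rose by 1.13 ± 0.22 in WT and 1.14 ± 0.22 in KO. Of the aldo-keto reductases outside the 10, 4 of 7 listed were tested, and 0 of these 4 were called with PB in either genotype (limma, 0 at an unadjusted p under 0.05 in each).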

How the data were processed

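RNA of 16 livers was hybridised to 1-colour Agilent arrays. The deposited scanner files, written by Feature Extraction 12.0.3.1, hold an intensity per spot that the authors' software corrected for background, without scaling between arrays. The authors also deposited a series table of the same intensity values, averaged over spots of a probe. Here outlier spots (71 to 122 per array) were left out and repeat spots averaged, and the 75th percentile of each array was subtracted on the log2 scale. The tests took 24456 of 41174 probes, those that in at least 1 group were well above background on each of its 4 arrays. Symbols came from the RefSeq gene table (GRCm38.p6) for 68.5% of probes, and the sequences of the probes were not used, so signal from related genes on a probe was not tested.

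Using limma 3.58.1 in R 4.3.3, models with 4 group means were fitted over 16 arrays by lmFit with eBayes moderation, with p adjusted by Benjamini-Hochberg over all probes tested. Calls needed a change of at least 1.5-fold with an adjusted p under 0.05 at the brightest probe of the gene. Two-sided exact permutation tests used 70 assignments (Python 3.11.15). The fit was tested on simulated data. The number of arrays limits the precision. Genes outside the family are named as the 3 most like each called member and up to 4 called genes of a list. The 10 genes, the lists and the tests were chosen with earlier results of these data known. Alternatives changed the background correction, scaling, source, filters, slide and replicate blocks, moderation, probe rule, threshold and arrays included. Normexp used the median spot signal, as the scanner files used here hold no mean signal. Motifs were searched on both strands of RefSeq promoters, present for 8 of the 10 genes.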

Additional observations from a re-analysis of the deposited data

Results flagged for a closer look

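Of 36 groups of 4 arrays examined for the 9 genes, 1 held an array far from the others, and chance marks about 1 group in 20. For Akr1b7, WT DEN + PB replicate 1 was the lowest of its group at -1.26 on the log2 scale, while the other 3 arrays lay between -0.98 and -0.95. The gap was 0.925 of the whole range of the group, above Dixon's 95% critical value for 4 values. The group's spread was small, with an SD of 0.15 (n = 4), and the array still lay above all 4 WT DEN arrays, of which the highest was -3.48. Without that array the PB effect on Akr1b7 in WT was still called. Over all fits that left out a single array, this one included, the effect ranged from 2.72 to 3.00.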

How the results depend on the processing

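For 45 results of single genes, 1251 alternative values were computed, of which 1195 kept direction and call, 2 lost the call, 9 gained it and 45 turned sign. The median log2 change of all genes moved from 0.01 to -0.29 for the PB effect in KO in the series table without scaling, from -0.04 to 0.35 for the difference of the PB effects and from 0.03 to -0.31 for KO against WT under DEN + PB, and values of that setting are to be read against these shifts.

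Under normexp 0 genes were called for the PB effect in WT and 0 for KO against WT under DEN + PB, since Akr1b7 lost both calls (0.79, adjusted p = 1, range 3.61e-07 to 1, and 1.17, adjusted p = 0.132, range 7.08e-05 to 0.132, limma), and its difference under DEN turned to -0.27. For the PB effect in KO, 2 genes were called with the mean of a gene's probes and 2 with any probe, Akr1b3 joining Akr1b7. Under DEN, Akr1c14 made 1 call with normexp without spots of outlying background, 1 with trend and robust moderation and 1 with the mean of probes, and over single arrays left out the count ranged from 0 to 1, the 1 without KO DEN replicate 3. Under DEN + PB, Akr1b8 joined Akr1b7 for 2 calls under normexp without spots of outlying background, 2 under quantile normalization, 2 with the series table and 2 with trend and robust moderation.

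The sign turned for values that were not called. In the series table these were Akr1c6 (0.0054), Akr1c19 (0.0605) for PB in WT, Akr1c6 (-0.0085) and Akr7a5 (-0.0363) for PB in KO, Akr1a1 (0.20), Akr1b3 (0.0863), Akr1c6 (0.0139), Akr1c14 (0.0427), Akr1c19 (0.0245) and Akr7a5 (0.26) for the difference, and Akr1b3 (-0.21), Akr1c6 (-0.12), Akr1c19 (-0.34), Akr1d1 (-0.0807) and Akr7a5 (-0.00024) for KO against WT under DEN + PB. Under quantile normalization these were Akr1c19 (0.0795) for PB in WT, Akr1a1 (0.00276) for the difference, and Akr1c6 (-0.0161) and Akr1c19 (-0.20) under DEN + PB. Under normexp these were Akr1b7 as above, Akr1a1 (0.0275) and Akr1c6 (0.0883) under DEN and Akr1a1 (0.23) under DEN + PB. Akr1c19 turned with the mean of probes (0.25 for PB in WT, -0.0204 under DEN + PB) and with normexp without spots of outlying background (-0.0509 under DEN + PB), and Akr1d1 under DEN with slide as a block (0.0065). Over single arrays left out, values that turned ranged from -0.21 to 0.0209 (Akr1c6), -0.12 to 0.043 (Akr1c19), -0.16 to 0.23 (Akr1d1) and -0.10 to 0.31 (Akr7a5) for PB in WT, from -0.36 to 0.0496 (Akr7a5) for the difference, from -0.53 to 0.0426 (Akr1d1) and -0.0212 to 0.39 (Akr7a5) under DEN, and from -0.0386 to 0.0542 (Akr1a1) and -0.0659 to 0.0579 (Akr1c19) under DEN + PB. The causes were not tested.

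No sign was seen that the replicate numbers pair the mice, although such correlations cannot exclude a pairing. Of 24 same-numbered pairs, 6 deviated together with r over 0.1 (median 0.01), and 4 of 16 arrays correlated best with their own number. The median r was -0.02 for arrays of other numbers in other groups. With the replicate block the counts of called genes were 1 for PB in WT, 1 in KO, 0 for the difference, 0 under DEN and 1 under DEN + PB, as without it. With normexp without spots of outlying background, Akr1c19 lacked WT DEN + PB replicate 4 and Akr1a1 lacked KO DEN replicate 2.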
